A study of Mus musculus with 6 samples.

Results

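The non-hypertrophic chondrocytes of Day 10 digits in a dish (DID) cultures were examined by single-cell RNA-seq (scRNAseq). They were chosen by their own counts. Among barcodes with at least 3000 unique molecular identifiers (UMIs), at most 7500 detected genes and at most 25% of UMIs from mitochondrial genes, a cell was kept when the cartilage genes Matn1 and Snorc together held at least 0.3% of its UMIs, when it had no Ihh UMI and when it had fewer than 20 Col10a1 UMIs. This gave 731 cells in Day 10 replicate A and 754 in replicate B, 1485 of the 16707 Day 10 cells and of the 54126 cells of all 6 libraries that passed the cell filter. The other 15222 Day 10 cells are called the other cells. They include 1428 cells, here called Ihh or Col10a1 chondrocytes, that reached the Matn1 plus Snorc limit but had an Ihh UMI or at least 20 Col10a1 UMIs.

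The cultures were grown from the distal forelimb mesenchyme of wild-type CD-1 mouse embryos at E11.5, which was pooled over embryos, dissociated and plated densely in a medium with fetal bovine serum. Day 2, Day 7 and Day 10 each had replicates A and B, and the labels tell the groups apart by the day of harvest. The labels give no treatment. A replicate is a culture of pooled cells and not an animal, and no group holds cartilage that grew in an embryo.

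In limb cartilage, chondrocytes first divide and lay down a matrix of type II, IX and XI collagen and of aggrecan, under the transcription factors SOX9, SOX5 and SOX6. They then leave the cell cycle, enlarge and become hypertrophic, with Ihh marking the step before hypertrophy (prehypertrophy) and Col10a1, which encodes type X collagen, marking hypertrophy itself. PTHrP, the ligand of the receptor encoded by Pth1r, holds cells back from this step, and Indian hedgehog, the product of Ihh, acts upstream of it. Matn1 encodes matrilin 1, a protein that links collagen fibrils with proteoglycans, and Snorc encodes a small membrane proteoglycan of cartilage.

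The cells passing the filter numbered 8350 and 8357 at Day 10 (from 12313 and 12363 barcodes), 9355 and 9373 at Day 7 and 8949 and 9742 at Day 2, and they held between 166797398 and 253858740 UMIs per library. The non-hypertrophic chondrocytes held 18284728 and 18397519 UMIs, or 7.20% and 7.48% of their libraries, and a cell of median depth held 24848 UMIs from 4520 genes in replicate A and 23734.5 UMIs from 4384 genes in replicate B. Each pair of libraries shared 36 to 120 barcodes, at most 0.715% of the smaller library. Values below are UMIs of the summed cells scaled to 1e6 UMIs (CPM), given for replicate A and then B. CPM are not scaled to transcript length and are compared between cells, never between genes.

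The sequences just before the start of Matn1, of Ucma and of Epyc are shown because Matn1 carried the selection and the others led the genes that were higher in these cells. They are the 250 bases upstream of each RefSeq start (GRCm38.p6), 5′ to 3′ on the gene's strand, with capitals at the core letters that SOX proteins can bind, ACAAAG or ACAATG on either strand. Matn1 lies at chr4:130944135-130944384 (plus strand), Ucma at chr2:4975872-4976121 (plus strand), and the 2 listed starts of Epyc at chr10:97643818-97644067 and chr10:97646853-97647102 (plus strand).
Matn1: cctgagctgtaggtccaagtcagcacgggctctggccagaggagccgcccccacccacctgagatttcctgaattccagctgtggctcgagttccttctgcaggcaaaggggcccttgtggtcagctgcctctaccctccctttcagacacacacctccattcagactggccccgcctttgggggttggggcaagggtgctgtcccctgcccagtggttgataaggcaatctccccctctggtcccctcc
Ucma: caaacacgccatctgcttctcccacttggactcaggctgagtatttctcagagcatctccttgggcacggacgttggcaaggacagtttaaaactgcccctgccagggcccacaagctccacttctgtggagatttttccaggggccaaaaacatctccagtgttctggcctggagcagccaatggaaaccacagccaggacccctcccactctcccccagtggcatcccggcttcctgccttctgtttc
Epyc, first start: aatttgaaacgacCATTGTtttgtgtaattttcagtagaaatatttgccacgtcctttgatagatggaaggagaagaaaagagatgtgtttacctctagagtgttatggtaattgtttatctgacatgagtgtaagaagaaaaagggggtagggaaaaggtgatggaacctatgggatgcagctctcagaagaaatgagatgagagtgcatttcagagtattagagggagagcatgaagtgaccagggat
Epyc, second start: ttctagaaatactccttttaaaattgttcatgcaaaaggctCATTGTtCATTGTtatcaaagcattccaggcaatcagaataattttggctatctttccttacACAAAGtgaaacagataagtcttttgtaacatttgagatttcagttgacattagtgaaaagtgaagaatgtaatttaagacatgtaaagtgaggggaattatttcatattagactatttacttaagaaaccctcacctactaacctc
The windows of Matn1 and Ucma held none of these letters. The window of the first Epyc start held CATTGT 237 bases before the start, and that of the second start held CATTGT at 209 and 202 bases and ACAAAG at 147 bases. Over all 32851 promoters of the table the letters were in 25.2%, and they were in 37 of the 245 entries (15.1%) of the genes that were at least 2-fold higher in the non-hypertrophic chondrocytes. That share lay near the 16.6% (1370 of 8260 entries) of all genes measured in these cells and the other cells.

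The share of cells that met the rule was highest at Day 7. No cell met it in 8949 and 9742 cells at Day 2, which allows a share of up to 0.0412% and 0.0379% (exact binomial 95% interval, which like all intervals here covers counting error only). The paper annotated Day 2 clusters as chondrocytes by markers that included Col2a1 and Acan. That chondrocytes were absent at Day 2 therefore does not follow from this rule. At Day 7 it was met by 2048 and 1809 cells, or 21.9% and 19.3%. At Day 10 the shares were 8.75% (95% interval 8.16 to 9.38%) and 9.02% (8.42 to 9.66%), so that both Day 10 libraries lay below both Day 7 libraries, and the Day 10 replicates lay within each other's interval. The Ihh or Col10a1 chondrocytes made up 8.68% and 8.61% of cells at Day 7 and 8.36% and 8.74% at Day 10. Cells that reached the Matn1 plus Snorc limit thus went from 2860 and 2616 at Day 7 to 1429 and 1484 at Day 10. Since the rule uses counts, these shares are a description and were not tested.

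**Figure D1:**
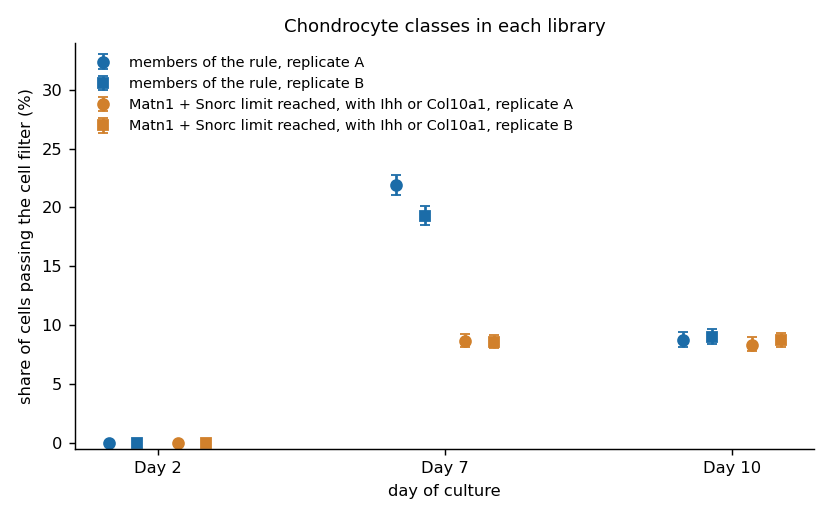
Share of cells passing the cell filter (y axis, %) that met the rule (blue) or reached the Matn1 plus Snorc limit with Ihh or Col10a1 (orange), by day of culture (x axis) for replicate A (circles) and B (squares), with exact binomial 95% intervals. The non-hypertrophic chondrocytes stood at 21.9% and 19.3% at Day 7 and at 8.75% and 9.02% at Day 10, and the orange class lay between 8.36% and 8.74% on both of these days and at 0% at Day 2.

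The 2 genes of the rule did not split the cells evenly. A median member had 90 and 91 Matn1 UMIs and 43 and 50 Snorc UMIs, and Matn1 gave a median of 66.7% and 67.5% of the pair. Across cells the shares of UMIs from Matn1 and from Snorc had a Pearson correlation of -0.12 over 731 cells and -0.05 over 754 cells, a description over cells that share a library and a lower limit on the sum. Only 3 and 2 cells had no Matn1 UMI, and 38 and 31 had no Snorc UMI. Col10a1 was at 0 UMIs in 539 and 618 of the cells.

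The limits cut through a gradient. Cells just inside the Matn1 plus Snorc limit, with 0.30 to 0.35% of their UMIs, numbered 73 and 54 and had 15690.0 and 13968 CPM of Col2a1, the gene of type II collagen. Cells just outside, with 0.25 to 0.30%, numbered 74 and 80 and had 12809.7 and 12942 CPM of Col2a1, while the cells further below had 1234 and 1087 CPM. A single Ihh UMI kept out 169 and 168 cells, in which Col2a1 stood at 21977 and 19119 CPM. The Ihh limit depends on depth, since 61.2% and 63.3% of the Day 10 cells with an Ihh UMI among those reaching the Matn1 plus Snorc limit had none after each cell was thinned to 3000 UMIs. The Ihh or Col10a1 chondrocytes were also deeper, at 40120.5 and 37448.5 UMIs for the median cell. At the Col10a1 limit few cells were in doubt, with 5 and 1 cells of 10 to 19 Col10a1 UMIs inside it and 1 and 0 cells of 20 to 29 UMIs outside.

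As the label requires, these cells carried the defining genes of cartilage. Col2a1 had a UMI in 100% of them, and Cnmd (chondromodulin, an inhibitor of vessel growth) in 91.7% and 92.2%. Macrophage-lineage cells of the same libraries, which should lack these genes and numbered 121 and 169, had a Cnmd UMI in 19.01% and 14.2% and a Col2a1 UMI in 99.2% and 100%. After thinning all cells to 3000 UMIs, Cnmd was seen in 74.7% and 76.1% of the non-hypertrophic chondrocytes and in 1.7% and 4.1% of the macrophage-lineage cells, and Ucma in 17.2% and 19.4% against 0% and 0.6%. For Col2a1, 55.4% and 52.7% of thinned macrophage-lineage cells still had a UMI, so a single Col2a1 UMI was no sign of a chondrocyte here. Of the genes of hypertrophy, Col10a1 was held at 18.6 and 11.7 CPM by the rule, yet a UMI of Panx3, a channel protein of prehypertrophic cartilage, was present in 75.4% and 74.4% of the cells and one of Pth1r in 90.4% and 87.4%. In macrophage-lineage cells these shares were 10.7% and 11.2% for Panx3 and 21.5% and 27.2% for Pth1r. After thinning to 3000 UMIs, Panx3 was seen in 33.9% and 36.5% of the non-hypertrophic chondrocytes against 1.65% and 4.73% of the macrophage-lineage cells, and Pth1r in 46.2% and 46.4% against 5.79% and 4.73%. The label thus covers cells without an Ihh UMI and with little Col10a1 in which Panx3 and Pth1r lay above this background.

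Compared with the other cells of the same cultures, the non-hypertrophic chondrocytes were set apart by cartilage matrix genes and by a lower level of contractile, fibrous, joint and immune genes. Of 8032 genes measured at 10 CPM or more in either group, 247 (3.08%) were at least 2-fold higher in both libraries and 740 (9.21%) were at least 2-fold lower, with a median log2 fold of -0.16. The cells were chosen on their counts, so this contrast is described by size and by both libraries, without a test. The 4 genes of the rule are left out of all counts. Within cells of 20000 to 40000 UMIs, a range added after the data were seen, 247 genes were higher and 853 lower of 7961 measured.

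Ucma, a secreted Gla-rich cartilage protein, led the higher genes. It stood at 125 and 153 CPM in the non-hypertrophic chondrocytes and at 11.6 and 11.4 CPM in the other cells, a fold of 10.8 and 13.5. Cmtm5, a membrane protein of the MARVEL family, stood at 90.3 and 98.5 against 12.2 and 13.3 CPM. Epyc, the small proteoglycan epiphycan, followed with 158 and 193 against 24.2 and 27.1 CPM. Scrg1, a small secreted protein, had 157 and 175 against 25.9 and 27.6 CPM. In each of these genes the non-hypertrophic chondrocytes were more than 6-fold above the other cells of the same library, and the groups did not overlap. Cnmd at 881 and 855 CPM, Mia at 1611 and 1698 CPM, Ncmap at 80.7 and 87.2 CPM and Fbln7 at 83.3 and 90.4 CPM were 4.94 to 5.92-fold higher across the libraries.

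**Figure D2:**
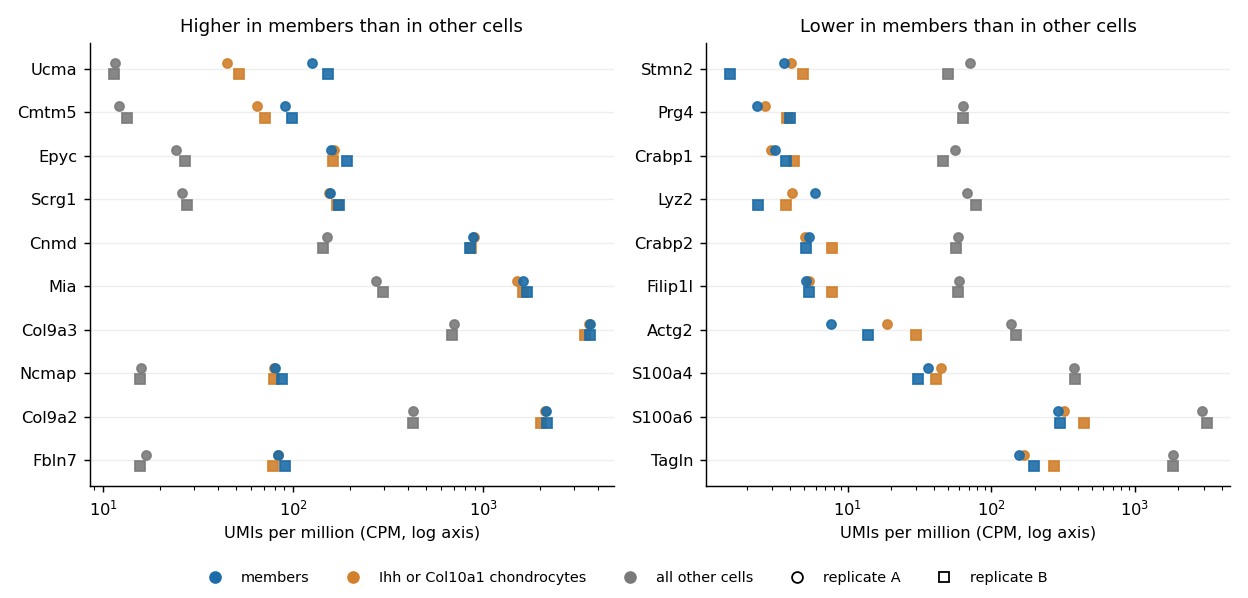
CPM (x axis, log scale) of the 10 genes with the largest fold in each direction between the non-hypertrophic chondrocytes (blue, called members) and the other cells (grey), with the Ihh or Col10a1 chondrocytes in orange, for replicate A (circles) and B (squares). Ucma stood at 125 and 153 CPM in members against 11.6 and 11.4 CPM in the other cells, and among the higher genes the orange and blue points are furthest apart for Ucma and Cmtm5.

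Of the fibril collagens all 7 measured genes were at least 2-fold higher, with a median log2 fold of 2.28. Col2a1 was at 20710.0 and 20231 CPM against 4349 and 4079.5 CPM, a fold of 4.76 and 4.96. The type IX chain Col9a3, which sits on the fibril surface, was at 3641 and 3655 against 700.4 and 684 CPM, and Col11a1, which nucleates the fibril, at 6689 and 6837 against 1782 and 1705 CPM. Col27a1, a further fibril collagen, was 3.95 and 3.88-fold higher.

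Of the aggrecan, link protein and matrilin genes, 5 of 7 measured were higher and 1 was lower, with a median of 1.51. Acan, the core protein of the main proteoglycan, was at 2453 and 2365 against 589.6 and 521 CPM and its link protein gene Hapln1 at 2051 and 1828 against 567 and 497 CPM. The matrilin genes Matn3 and Matn4 were 4.44 and 4.53-fold and 2.33 and 2.35-fold higher, and Comp, a thrombospondin of the matrix, 2.67 and 3.03-fold. Vcan, the proteoglycan of early mesenchyme, ran the other way at 19.7 and 19.8 against 102 and 84.2 CPM. The small leucine-rich proteins were mixed. Epyc, Chad, Chadl, Prelp, Dcn and Omd were higher, Bgn at 678 and 658 against 1514 and 1363 CPM and Aspn at 72.2 and 63.1 against 315 and 291 CPM were lower, and 3 of 11 passed neither limit.

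Among the small secreted and late cartilage proteins 10 of 11 measured were higher, with a median of 2.04. Beside Ucma, Cnmd, Mia and Scrg1, these were Wwp2, a ubiquitin ligase whose intron holds miR-140, at 551 and 514 against 130.4 and 129 CPM, Susd5 at 211 and 226 against 52.8 and 49.2 CPM, Cytl1 at 69.0 and 87.1 against 20.9 and 22.5 CPM, Ostn (3.08 and 2.98-fold), Pcolce2 and Ecrg4. Clec11a did not reach 2-fold, at 146 and 136 against 93.6 and 90.6 CPM.

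Enzymes that build and sulfate the chondroitin chains of aggrecan were higher in 7 of 20 measured genes and lower in none, with a median of 0.54. Ugdh makes the sugar nucleotide and was 2.21 and 2.09-fold higher. Slc35d1, which transports it, was at 62.0 and 56.9 against 19.5 and 18.2 CPM. Xylt1 starts the chain and was at 139 and 135 against 38.3 and 35.8 CPM. Csgalnact1 commits the chain to chondroitin and was at 131 and 128 against 30.7 and 30.3 CPM. The sulfate transporter gene Slc26a2 was at 148 and 137 against 42.3 and 36.2 CPM, Papss2, which activates sulfate, at 196 and 188 against 47.8 and 43.5 CPM and the sulfotransferase gene Chst11 at 84.7 and 81.3 against 22.4 and 19.7 CPM. The collagen-folding and secretory genes moved less, with 3 of 29 higher and 1 lower. The higher ones were the collagen hydroxylase genes P4ha1, P4ha2 and Plod2 (408 and 374 against 128 and 119 CPM). The lower one was Creb3l1, a regulator of secretion in bone-forming cells, at 30.2 and 31.4 against 89.7 and 82.5 CPM, while Creb3l2, its relative in cartilage, was at 155 and 138 against 80.4 and 77.4 CPM, short of 2-fold. In the glycolysis and hypoxia list 2 of 22 genes were higher and 1 lower, which became 4 higher and none lower within cells of 20000 to 40000 UMIs.

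The transcription factors were less distinct than the matrix. Of 12 measured chondrogenic factors, 3 were at least 2-fold higher, none was lower and the median was 0.05. Sox9 stood at 443 and 415 against 168 and 158 CPM and Sox6 at 84.2 and 81.8 against 24.8 and 27.4 CPM, whereas Sox5 at 55.2 and 53.4 against 30.4 and 30.1 CPM was below 2-fold. The third was Foxa3, at 21.1 and 21.0 against 5.03 and 5.15 CPM. None of 11 hypertrophy regulators reached 2-fold in either direction. Within 20000 to 40000 UMIs 1 of 11 was lower, and of the chondrogenic factors 3 were higher and 1 lower. Runx2 was at 68.6 and 69.7 against 55.0 and 58.2 CPM, Mef2c at 196 and 198 against 179 and 194 CPM and Sp7, needed for bone-forming cells, at 28.4 and 25.5 against 19.3 and 21.2 CPM.

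The signalling lists held genes on both sides. Fgfr3, which restrains chondrocyte growth, stood at 271 and 256 against 68.6 and 63.7 CPM, and Fgfr4 and Fgfrl1 were 4.70 and 4.99-fold and 2.03 and 2.11-fold higher, 3 of 10 measured in that list with 4 lower. Within 20000 to 40000 UMIs 1 of 9 was higher and 4 were lower, with the median going from -0.69 to -1.31. The BMP antagonist genes Nog, Chrdl1 and Chrdl2 were the 3 of 22 genes higher in the BMP and TGF-beta list, with Chrdl2 at 22.3 and 21.9 against 2.38 and 2.50 CPM. In the WNT list the antagonist genes Frzb at 177 and 169 against 46.5 and 44.0 CPM and Sfrp5 at 44.7 and 43.6 against 5.76 and 6.71 CPM were higher together with the ligand gene Wnt4 at 29.4 and 31.0 against 14.4 and 15.4 CPM. Of the same list 4 of 10 genes were lower, among them the antagonist genes Dkk3 at 9.46 and 7.61 against 61.3 and 59.2 CPM and Sfrp2 at 5.03 and 5.06 against 23.6 and 28.0 CPM, so that antagonists lay on both sides. Hedgehog and PTHrP genes other than Ihh had 1 of 8 lower, the hedgehog co-receptor gene Gas1 at 24.2 and 19.6 against 144 and 118 CPM, and none higher. Within 20000 to 40000 UMIs 2 of 8 hedgehog and PTHrP genes were lower, as were 5 of 22 BMP and TGF-beta genes (3 in all cells) and 5 of 11 WNT genes, with 3 higher in each of the latter lists. The hedgehog receptor and target Ptch1 stood at 139 and 132 against 72.8 and 93.3 CPM and Pth1r at 243 and 252 against 187 and 202 CPM, both short of 2-fold.

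The growth list was mixed, with 3 of 17 genes higher and 5 lower. Igf2 stood at 2195 and 2229.7 against 869 and 852 CPM, Dlk1, an inhibitor of Notch-type signalling, at 910.4 and 1053 against 156 and 252 CPM, and Peg3 at 1711 and 1706 against 506 and 514 CPM. The lower ones included Igf1 at 19.1 and 25.4 against 101 and 92.0 CPM and the IGF-binding protein gene Igfbp3 at 34.9 and 37.3 against 143 and 116 CPM. The cell cycle inhibitor gene Cdkn1c was at 2308 and 2396 against 808 and 857 CPM, while another inhibitor gene, Cdkn2a, was at 9.57 and 12.8 against 109.9 and 115 CPM. Genes of the cell cycle were lower in 9 of 22 and higher in none, with a median of -1.14 and Mki67 at 21.9 and 31.8 against 47.3 and 52.3 CPM. Of the matrix receptors, the type II collagen integrin gene Itga10 at 43.2 and 42.2 against 12.8 and 12.1 CPM and Cspg4 at 269.6 and 259.6 against 75.7 and 72.6 CPM were higher, and the hyaluronan receptor gene Cd44 at 0.151 and 0.152 of the level in the other cells was lower with Itga11 and Sdc1.

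**Figure D3:**
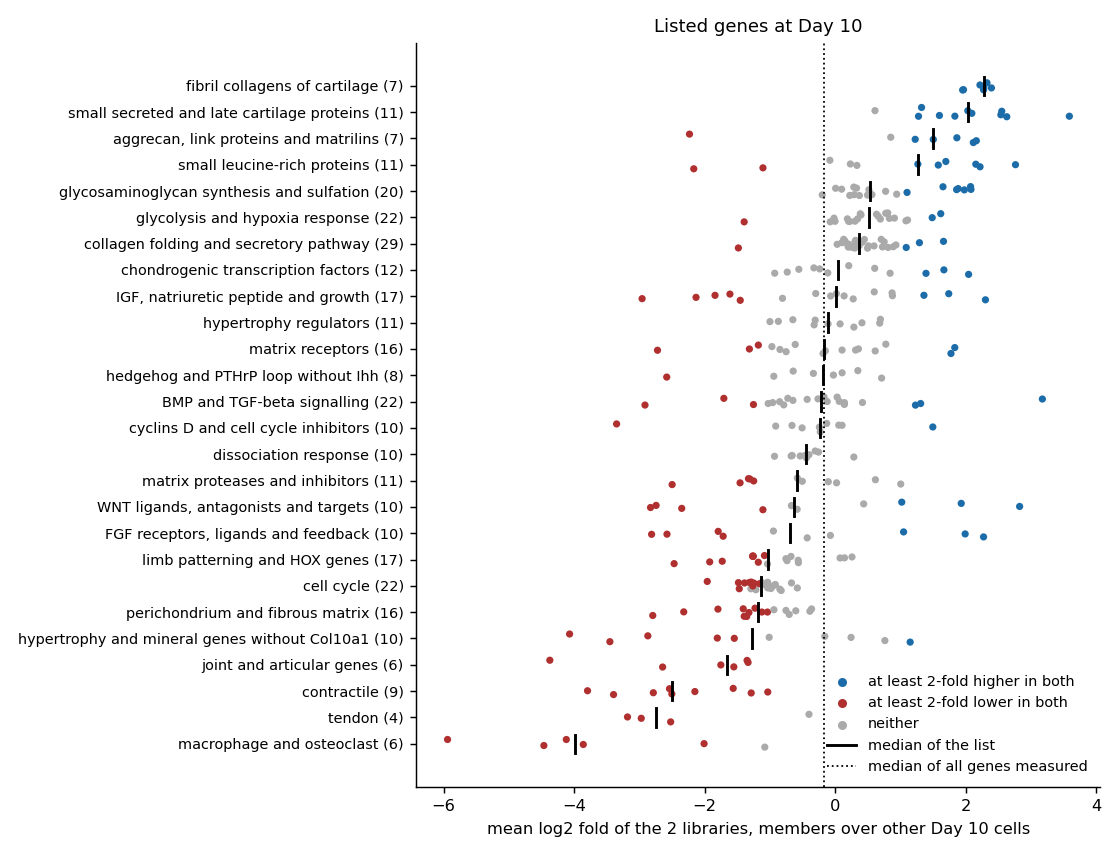
Mean log2 fold of the 2 Day 10 libraries, non-hypertrophic chondrocytes (members) over other cells (x axis), for each measured gene of the lists with at least 3 measured genes (rows, number of genes in brackets). Blue and red points passed 2-fold in both libraries, bars mark list medians and the dotted line the median of all measured genes at -0.16. The fibril collagens lie furthest to the right with a median of 2.28 and the macrophage and osteoclast genes furthest to the left with -3.99.

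Genes of other tissues of the culture were lower. All 9 contractile genes were at least 2-fold lower, with a median of -2.50, among them Acta2 at 372 and 485 against 2522 and 2416 CPM and Tagln at 155 and 197 against 1833 and 1842 CPM. In the perichondrium and fibrous list 10 of 16 were lower and none higher, with Col1a1 at 728 and 621 against 3565 and 3156 CPM and Postn at 56.9 and 45.4 against 375 and 331 CPM. All 6 measured joint genes were lower, and the lubricin gene Prg4 had 2.35 and 3.97 against 63.4 and 63.1 CPM. Of the tendon genes 3 of 4 were lower, with Scx at 10.3 and 6.90 against 68.2 and 64.3 CPM. Macrophage and osteoclast genes were lower in 5 of 6, with Tyrobp at 2.84 and 1.58 against 26.1 and 36.2 CPM, and no HOX or limb patterning gene was higher and 8 of 17 were lower. Among genes with a mean of at least 50 CPM in the other cells, the leading lower genes were headed by Stmn2, a microtubule regulator, at 3.61 and 1.52 against 71.6 and 49.6 CPM, Prg4, and Crabp1, a retinoic acid-binding protein, at 3.12 and 3.75 against 56.1 and 46.4 CPM. Crabp2, Lyz2, Filip1l, S100a4 and S100a6 completed the 10 leading lower genes with Actg2 and Tagln. Of the matrix proteases and inhibitors, 5 of 11 were lower, with Adamts5, an aggrecanase, at 3.83 and 3.26 against 21.0 and 18.9 CPM.

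Transcripts of other cell types were still present, at levels that differed between the lists. The 9 macrophage and osteoclast genes summed to 36.3 and 31.0 CPM, against 168 and 224 CPM in the other cells and 9820 and 9889 CPM in the macrophage-lineage cells. The 16 perichondrium and fibrous genes summed to 4592 and 4186 CPM, against 12488 and 11367 CPM in the other cells and 3172 and 3310 CPM in the macrophage-lineage cells, which should lack most of them. The 9 contractile genes summed to 1406 and 1668 CPM, against 7153 and 7175 CPM in the other cells and 967 and 2599 CPM in the macrophage-lineage cells. None of these genes was at 0. All 6 erythroid genes were at 0. The part that free RNA or doublets had in these sums was not tested.

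The hypertrophy and mineral genes other than Col10a1 were lower than in the other cells in 5 of 10, with a median of -1.28, and 1 was higher. Bone sialoprotein (Ibsp) stood at 41.2 and 89.1 against 546 and 804 CPM and osteopontin (Spp1) at 228 and 207 against 1536 and 1636 CPM. Panx3 was the higher one, at 182 and 168 against 78.1 and 79.4 CPM, and Alpl, the phosphatase that frees phosphate for mineral, was at 80.4 and 82.4 against 84.7 and 97.4 CPM.

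The Ihh or Col10a1 chondrocytes of the same libraries differed from these cells in few genes. Of their 698 and 730 cells, 693 and 727 had an Ihh UMI and 113 and 65 reached the Col10a1 limit. The contrast is thus chiefly between cells with and without a detected Ihh UMI, and not one with hypertrophic cells. Of 7327 genes measured, 21 (0.287%) were at least 2-fold higher in the non-hypertrophic chondrocytes in both libraries and 49 (0.669%) were at least 2-fold lower, with a median log2 fold of 0.03. Judged in a single library, 46 genes in replicate A and 47 in replicate B were higher. No fibril collagen of 7, no aggrecan-group gene of 7, no chondrogenic transcription factor of 12 and no hypertrophy regulator of 10 passed 2-fold. Col2a1 stood at 20710.0 and 20231 against 23343 and 20865 CPM and Sox9 at 443 and 415 against 446 and 449 CPM.

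Of the hypertrophy and mineral list 3 of 8 genes were lower, namely Ibsp, Alpl and Panx3, and of the hedgehog and PTHrP list 1 of 7, Pth1r. Ibsp had 41.2 and 89.1 CPM against 542 and 415 CPM, a fold of 0.0760 and 0.215, so that replicates A and B were over 2-fold apart in the non-hypertrophic chondrocytes. Pth1r had 243 and 252 against 778 and 711 CPM. Panx3 had 182 and 168 against 399 and 365 CPM and Alpl 80.4 and 82.4 against 222 and 196 CPM, and in each of these genes the classes did not overlap. Sgms2, a sphingomyelin synthase, was at 77.9 and 76.9 against 303 and 277 CPM, and Pcsk6, a proprotein convertase, at 17.6 and 15.2 against 56.5 and 49.5 CPM. Both WNT ligand genes that passed were lower, with Wnt4 at 29.4 and 31.0 against 78.1 and 74.5 CPM and Wnt5b at 3.28 and 3.80 against 17.4 and 11.8 CPM. Runx2 (68.6 and 69.7 against 77.0 and 79.9 CPM) and Mef2c (196 and 198 against 354 and 339.9 CPM) did not pass 2-fold, nor did Comp, although it was lower at 1923 and 1936 against 4017 and 3495 CPM. After thinning to 3000 UMIs, 46.2% and 46.4% of the non-hypertrophic and 73.5% and 75.1% of the Ihh or Col10a1 chondrocytes had a Pth1r UMI, and 33.9% and 36.5% against 62.6% and 62.9% a Panx3 UMI.

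What was higher was led by Ucma, at 125 and 153 against 44.8 and 51.8 CPM, a fold of 2.80 and 2.95. Nr4a2, a nuclear receptor of the early response type, was at 59.0 and 58.0 against 25.3 and 24.1 CPM, and Ecrg4 at 222 and 222 against 98.5 and 102 CPM. Cell cycle genes followed, with 5 of 18 at least 2-fold higher and a median of 0.81, for example Top2a at 42.1 and 61.5 against 19.9 and 23.4 CPM. The BMP antagonist gene Chrdl2 was at 22.3 and 21.9 against 10.0 and 9.93 CPM and the acid-balancing enzyme gene Car9 at 20.4 and 18.2 against 7.26 and 8.13 CPM. Lars2 was among the leading 5 as well but did not reach 2-fold in replicate A.

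The count of higher genes dropped more than that of lower genes when cells of like depth were compared. When both classes were restricted to cells with 20000 to 40000 UMIs, a comparison added after the data were seen, 4 genes were higher (Ucma at 2.48 and 3.52-fold, Tnnt3, 6330403K07Rik and Lockd) and 44 were lower. No cell cycle gene of 15 passed 2-fold in this range, but their median log2 fold was still 0.58 (0.81 in all cells). The folds of Ecrg4 were 1.71 and 1.95, and those of Nr4a2 were 1.34 and 1.94. Pth1r was at 0.295 and 0.336, Ibsp at 0.185 and 0.228 (0.0760 and 0.215 over all cells), Sgms2 at 0.217 and 0.286 and Pcsk6 at 0.286 and 0.279. The dissociation-response genes, which stress during cell preparation raises, had a median log2 fold of 0.75 over the Ihh or Col10a1 chondrocytes in all cells and of 0.35 in the depth range, and their part in the result was not tested.

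The non-hypertrophic chondrocytes varied among themselves along the Matn1 plus Snorc share. From the lowest to the highest tertile of that share (244 cells each in replicate A, 251 and 252 in replicate B), Ucma went from 56.2 and 84.8 to 195 and 267 CPM, Epyc from 78.2 and 84.8 to 301 and 345 CPM and Scrg1 from 78.0 and 81.8 to 266 and 297 CPM. These 3 secreted cartilage genes were thus more than 3-fold apart. Cnmd went from 598 and 557 to 1209 and 1245 CPM, Mia from 1126 and 1067 to 2187 and 2434 CPM and Col2a1 from 16362 and 15635 to 26264 and 26687 CPM, in smaller steps. Sox9 hardly differed, at 443 and 376 and 457 and 450.4 CPM, and neither did Panx3, at 188 and 178 and 180.4 and 161 CPM. Col1a1 ran the other way, from 1018 and 968 to 502 and 403 CPM. All genes of these cells share the UMIs that made the tertiles, so these values are a description.

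The cells differed in their balance of Snorc and Matn1. Since the rule used both genes, the values by that balance are a description only. In 203 and 214 cells Snorc gave at least 50% of the pair, and in 167 and 175 cells it gave under 10%. Omd (osteomodulin, a keratan sulfate proteoglycan) was at 77.8 and 123 CPM in the low-Snorc cells, 245 and 219 CPM in between and 504 and 616 CPM in the high-Snorc cells. Ecrg4 was at 100.2 and 60.4, then 164 and 177, then 395 and 374 CPM. Pth1r stood at 182 and 205 CPM in the low-Snorc and 323 and 360.3 CPM in the high-Snorc cells, Sp7 at 16.2 and 20.7 and 40.9 and 38.8 CPM, and Fgfr3 ran against them at 384 and 403 and 211 and 194 CPM. The low-Snorc cells were also shallow, with a median of 9252 and 8588 UMIs against 24955 and 25193.5 UMIs in the high-Snorc cells, and the part of depth in these values was not tested.

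Depth itself divided the class. In 191 and 208 of the cells (26.1% and 27.6%) there were fewer than 10000 UMIs, against 8.74% and 4.79% of the Ihh or Col10a1 chondrocytes and 13.4% and 14.1% of the other cells. These shallow cells had a median of 17.2% and 15.6% mitochondrial UMIs, against 3.12% and 2.69% in the deeper ones, and gave 6.79% and 7.04% of the summed UMIs. Col2a1 made up 38456 and 36919.5 CPM of the shallow and 19418 and 18968 CPM of the deeper cells, Acan 4502 and 5114 and 2304 and 2157 CPM, and Igf2 6674 and 6286 and 1868 and 1923 CPM. Not all cartilage genes shared this direction, since Ucma was at 71.7 and 48.7 CPM in the shallow and 129 and 161 CPM in the deeper cells and Cdkn1c at 812 and 760.2 and 2417 and 2519.8 CPM. Whether the shallow cells are damaged chondrocytes was not tested.

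**Figure D4:**
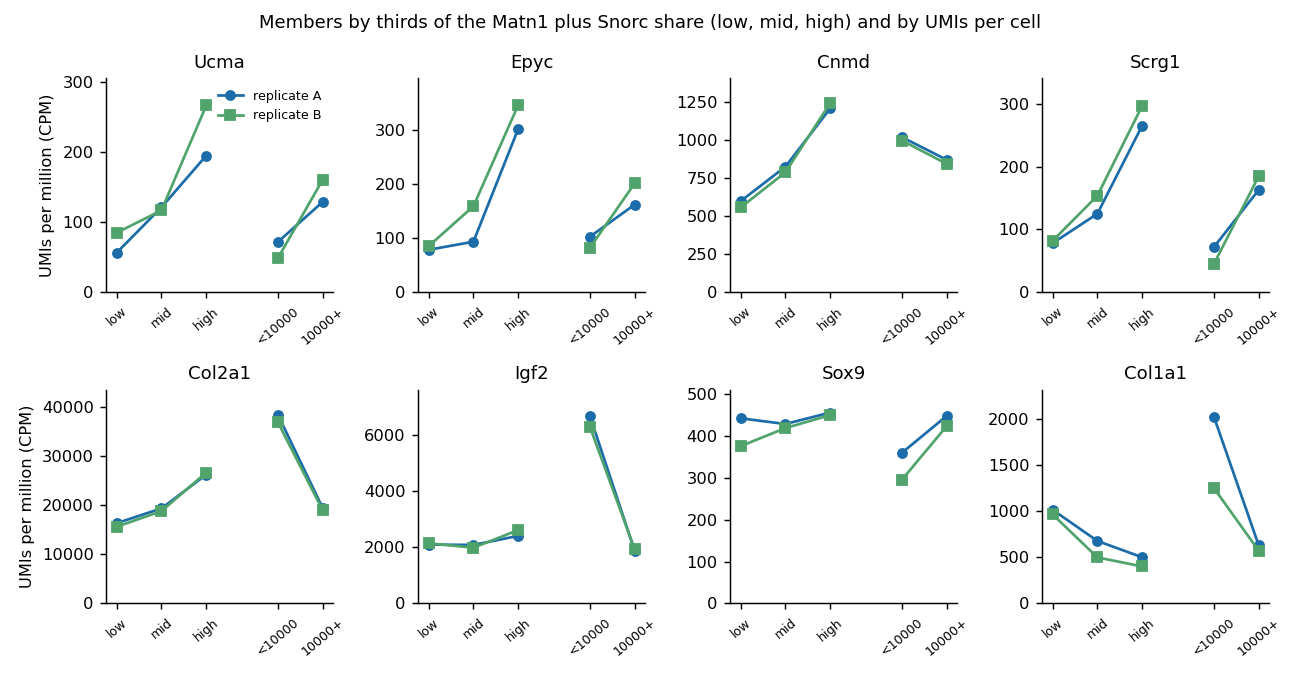
CPM (y axes) of 8 genes in the non-hypertrophic chondrocytes of Day 10, split into tertiles of the Matn1 plus Snorc share (low, mid, high) and into cells under and over 10000 UMIs, for replicate A (circles) and B (squares). Ucma, Epyc and Scrg1 climb across the tertiles, Sox9 stays between 376 and 457 CPM, and Col2a1 is at 38456 and 36919.5 CPM in the shallow cells.

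The same rule at Day 7 gave 3857 cells, which allowed the question of how cells of this kind differ between Day 7 and Day 10. Sums per library were compared by edgeR's quasi-likelihood test with Benjamini-Hochberg adjustment over 14256 genes. At Day 10, 2180 genes (15.3%) were higher and 2253 (15.8%) were lower at an adjusted p under 0.05, with 315 (2.21%) and 330 (2.31%) at least 2-fold apart. The p-values rest on the spread between n = 2 cultures per day. For each gene that spread was drawn largely from other genes (2 residual against 11.6 prior degrees of freedom). The day cannot be told apart from the preparation of its libraries. Log2 changes are scaled by trimmed means (TMM) and so can differ slightly from the ratio of the CPM. Scaling by library totals turned the split of calls from 49.2% to 67.7% higher, and without Day 7 replicate A 1403 genes were higher and 1442 lower.

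Genes of mineral and of the approach to hypertrophy rose in cells that were chosen for having no Ihh UMI. Among cells with an Ihh UMI that reached the Matn1 plus Snorc limit, 74.8% and 75.4% at Day 7 had none after thinning. At Day 10 this was 61.2% and 63.3%. The Ihh or Col10a1 chondrocytes numbered 812 and 807 at Day 7, beside 2048 and 1809 non-hypertrophic chondrocytes. At Day 10 they numbered 698 and 730, beside 731 and 754. The part of cells with undetected Ihh in the rises below was not tested, nor was the part of free RNA or doublets. Of 13 tested hypertrophy and mineral genes 9 rose, none fell and 7 rose at least 2-fold, with a median log2 change of 1.34 (beside a median within 0.01 of 0 over all genes tested). Alpl went from 12.2 and 8.87 CPM to 80.4 and 82.4 CPM (log2 change 2.86, SE 0.097, edgeR adjusted p = 2.89e-10). Panx3 went from 57.8 and 53.7 to 182 and 168 CPM (log2 change 1.57, SE 0.058, edgeR adjusted p = 6.79e-10), and in both genes the days did not overlap. Ibsp had the largest rise among the genes with a mean of at least 50 CPM at either day, from 1.85 and 0.998 to 41.2 and 89.1 CPM (log2 change 5.42, SE 0.33, edgeR adjusted p = 9.05e-08), with Day 10 replicate B over 2-fold above replicate A. Spp1 rose from 77.9 and 84.4 to 228 and 207 CPM (log2 change 1.34, SE 0.066, edgeR adjusted p = 9.33e-09). In the other cells Ibsp rose from 3.69 and 6.07 to 546 and 804 CPM and Spp1 from 672 and 672 to 1536 and 1636 CPM. Relative to the other cells Ibsp rose less (log2 difference -1.79) and Alpl and Panx3 rose more (0.56 and 0.62). For Spp1 the difference did not pass (0.07, edgeR interaction adjusted p = 0.532). The regulators upstream also rose between the days, with 9 of 12 higher and none lower and a median of 0.41. Sp7 rose from 5.67 and 5.19 to 28.4 and 25.5 CPM (log2 change 2.23, SE 0.091, edgeR adjusted p = 1.51e-09) and Runx2 from 44.2 and 39.2 to 68.6 and 69.7 CPM (log2 change 0.65, SE 0.062, edgeR adjusted p = 4.92e-06). Pth1r rose from 112 and 109.9 to 243 and 252 CPM (log2 change 1.08, SE 0.053, edgeR adjusted p = 9.48e-09).

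The other leading genes that rose had various roles. Sgms2 rose from 11.2 and 10.4 CPM to 77.9 and 76.9 CPM (log2 change 2.76, SE 0.065, edgeR adjusted p = 5.88e-12) and Smpd3, a sphingomyelinase, from 60.9 and 59.7 CPM to 293 and 274 CPM (log2 change 2.15, SE 0.057, edgeR adjusted p = 1.77e-11). Omd rose from 82.5 and 84.5 to 297 and 329 CPM (log2 change 1.83, SE 0.063, edgeR adjusted p = 2.89e-10). Mgp, which encodes matrix Gla protein, an inhibitor of mineral, rose from 1190.5 and 1266 CPM to 3228 and 3407 CPM (log2 change 1.35, SE 0.063, edgeR adjusted p = 6.28e-09). Cdsn, encoding corneodesmosin, and Ccdc80, a secreted matrix protein, rose by 1.68 and 1.68 on the log2 scale. Relative to the other cells Omd, Mgp, Cdsn and Ccdc80 rose more (log2 differences 0.98, 0.77, 0.35 and 1.07). For Sgms2 and Smpd3 the differences did not pass (-0.03 and 0.21, edgeR interaction adjusted p = 0.843 and 0.168). Of the aggrecan group, Comp rose from 903 and 871 to 1923 and 1936 CPM (log2 change 1.04, SE 0.056, edgeR adjusted p = 2.51e-08). Hedgehog signalling genes moved apart, with Ptch1 up from 59.3 and 50.2 to 139 and 132 CPM (log2 change 1.22, SE 0.067, edgeR adjusted p = 2.63e-08) and Gli2 down from 9.59 and 9.51 to 4.81 and 4.19 CPM (log2 change -1.17, SE 0.12, edgeR adjusted p = 1.24e-05), in a list with 4 of 13 higher and 4 lower.

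The fibril collagens changed little. Of 7 fibril collagens 3 rose, 1 fell and the median was 0.03. Col2a1 rose from 17009 and 16595 to 20710.0 and 20231 CPM (log2 change 0.20, SE 0.054, edgeR adjusted p = 0.0109) and Col11a1 fell from 7794 and 7409 to 6689 and 6837 CPM (log2 change -0.25, SE 0.055, edgeR adjusted p = 0.00377). Of the aggrecan group 6 of 9 rose, with Acan up by 0.24 on the log2 scale. Without Day 10 replicate A these 3 small changes kept about their size but did not pass (log2 change 0.19 and edgeR adjusted p = 0.182 for Col2a1, -0.23 and 0.0748 for Col11a1, 0.22 and 0.0557 for Acan), in a fit that leaves 1 Day 10 culture, assumed to vary like the Day 7 pair. That of Col2a1 did not pass without replicate B either (log2 change 0.23, edgeR adjusted p = 0.0951). The small secreted proteins split, with 4 of 12 higher and 5 lower. Epyc, on the leucine-rich list, fell from 351 and 349 to 158 and 193 CPM (log2 change -1.08, SE 0.077, edgeR adjusted p = 2.76e-07), Scrg1 from 265 and 273 to 157 and 175 CPM (log2 change -0.78, SE 0.063, edgeR adjusted p = 9.53e-07) and Mia from 2109 and 2221 to 1611 and 1698 CPM (log2 change -0.47, SE 0.061, edgeR adjusted p = 8.05e-05). Ucma stood at 108 and 128 CPM at Day 7 and 125 and 153 CPM at Day 10, a difference that did not pass (log2 change 0.15, edgeR adjusted p = 0.232). It did pass within 20000 to 40000 UMIs, where Ucma rose by 0.41 on the log2 scale (edgeR adjusted p = 1.86e-06). Sox9 did not pass either, at 415 and 417 and 443 and 415 CPM (log2 change -0.04, SE 0.057, edgeR adjusted p = 0.67), while Sox5 fell from 89.1 and 84.6 to 55.2 and 53.4 CPM (log2 change -0.76, SE 0.056, edgeR adjusted p = 3.78e-07), one of 8 of 15 chondrogenic factors that fell, against 1 that rose.

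The signalling antagonists named above did not all move one way. Chrdl2 rose from 5.57 and 4.92 to 22.3 and 21.9 CPM (log2 change 1.99, SE 0.093, edgeR adjusted p = 6.34e-09), Frzb from 94.3 and 89.6 to 177 and 169 CPM (log2 change 0.83, SE 0.053, edgeR adjusted p = 1.02e-07) and Sfrp5 from 20.4 and 20.5 to 44.7 and 43.6 CPM (log2 change 1.03, SE 0.065, edgeR adjusted p = 9.77e-08). Nog rose by 0.44 and Chrdl1 by 0.81 on the log2 scale (edgeR adjusted p = 5.61e-05 and 8.38e-06). Sfrp2 fell from 7.90 and 6.72 to 5.03 and 5.06 CPM (log2 change -0.62, SE 0.13, edgeR adjusted p = 0.00303), a call lost within 20000 to 40000 UMIs (log2 change -0.40, edgeR adjusted p = 0.151) and at a Matn1 plus Snorc limit of 0.5% (-0.089, edgeR adjusted p = 0.794), and Dkk3 did not pass (log2 change 0.39, SE 0.15, edgeR adjusted p = 0.0585). Over the lists, 12 of 31 BMP and TGF-beta genes rose and 8 fell, and 9 of 18 WNT genes rose and 3 fell. Fgfr3 rose from 191 and 170.2 to 271 and 256 CPM (log2 change 0.46, SE 0.06, edgeR adjusted p = 7.74e-05). The perichondrium and fibrous list rose in 11 of 16 genes and fell in 2, with Col1a1 going from 408 and 343 to 728 and 621 CPM (log2 change 0.76, SE 0.082, edgeR adjusted p = 1.33e-05). The contractile list rose in 4 of 9 and fell in 1 (7 and 1 within 20000 to 40000 UMIs), with Acta2 going from 184 and 239 to 372 and 485 CPM (log2 change 0.94, SE 0.12, edgeR adjusted p = 7.37e-05) and the list's sum from 1052 and 1177 to 1406 and 1668 CPM. In macrophage-lineage cells the contractile sum went from 973 and 1634 to 967 and 2599 CPM, and the perichondrium and fibrous sum from 4628 and 2379 to 3172 and 3310 CPM, against 2868 and 2553 to 4592 and 4186 CPM in the non-hypertrophic chondrocytes. Of 3 tested myogenic genes 2 fell, both at least 2-fold, while the 7 listed summed to 19.22 and 2.75 CPM at Day 7 and 1.26 and 2.07 CPM at Day 10, and within 20000 to 40000 UMIs neither of the 2 then tested passed. The dissociation-response list rose in 8 of 12 and fell in none, with a median of 0.54, and 3 of 5 tested macrophage and osteoclast genes rose and none fell, their 9 listed genes summing to 26.8 and 24.0 CPM at Day 7 and 36.3 and 31.0 CPM at Day 10. The part of these lists in the other changes was not tested.

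Cell cycle genes fell. Of 22 tested 20 fell and none rose, with a median of -0.67. Top2a, which untangles replicated DNA, went from 85.4 and 94.3 to 42.1 and 61.5 CPM (log2 change -0.87, SE 0.12, edgeR adjusted p = 9.49e-05), and Mki67 from 46.2 and 49.5 to 21.9 and 31.8 CPM (log2 change -0.92, SE 0.11, edgeR adjusted p = 5.47e-05), with Day 10 replicate B above replicate A in both. Cdkn1c, which halts the cycle, fell as well, from 3381 and 3514 to 2308 and 2396 CPM (log2 change -0.63, SE 0.059, edgeR adjusted p = 4.11e-06), whereas Cdkn1a rose from 264 and 258 to 443 and 488 CPM (log2 change 0.75, SE 0.06, edgeR adjusted p = 8.51e-07) and Cdkn2a rose from 1.63 and 1.68 to 9.57 and 12.8 CPM (log2 change 2.67, SE 0.17, edgeR adjusted p = 9.16e-08). Of the growth genes, Dlk1 fell from 1641 and 1774 to 910.4 and 1053 CPM (log2 change -0.88, SE 0.075, edgeR adjusted p = 1.68e-06), Igfbp5 rose from 493 and 432 to 1159 and 1016 CPM (log2 change 1.15, SE 0.073, edgeR adjusted p = 1.02e-07) and Igf2 did not pass, at 2179.8 and 2031 and 2195 and 2229.7 CPM (log2 change -0.01, SE 0.057, edgeR adjusted p = 0.927). Glycolysis and hypoxia genes fell in 10 of 24 and rose in 2.

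The genes that fell most were of another kind. They included Hist1h2ap, Hist1h4d, Hist1h1e and Hist1h1b (histones), Gm42418, Gm10076 and Gm10260, Gstp1 and Lars2. Gm42418, whose locus overlaps ribosomal RNA sequence, went from 23557 and 22141 CPM to 3181 and 3148 CPM (-2.93 on the log2 scale). Gm10076 went from 2241 and 2188 CPM to 760.5 and 158 CPM (-2.35), a call that was lost with DESeq2 (-2.35, adjusted p = 0.0649). Histone, Gm10076, Gm10260 and Gstp1 counts can be split with near copies elsewhere in the genome and are uncertain. The same genes were lower at Day 10 in the other cells of the cultures, with a log2 change of -3.69 for Gm42418 and -2.17 for Gm10076, and Day 10 replicates A and B were more than 2-fold apart for Gm10076, so these genes also differed between the libraries as a whole.

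The calls were repeated within a narrow range of depth. Within cells of 20000 to 40000 UMIs 1791 genes rose and 1883 fell of 13114 tested. Of the calls above, 1554 higher and 1649 lower were made again in the same direction and none was made in the opposite one.

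**Figure D5:**
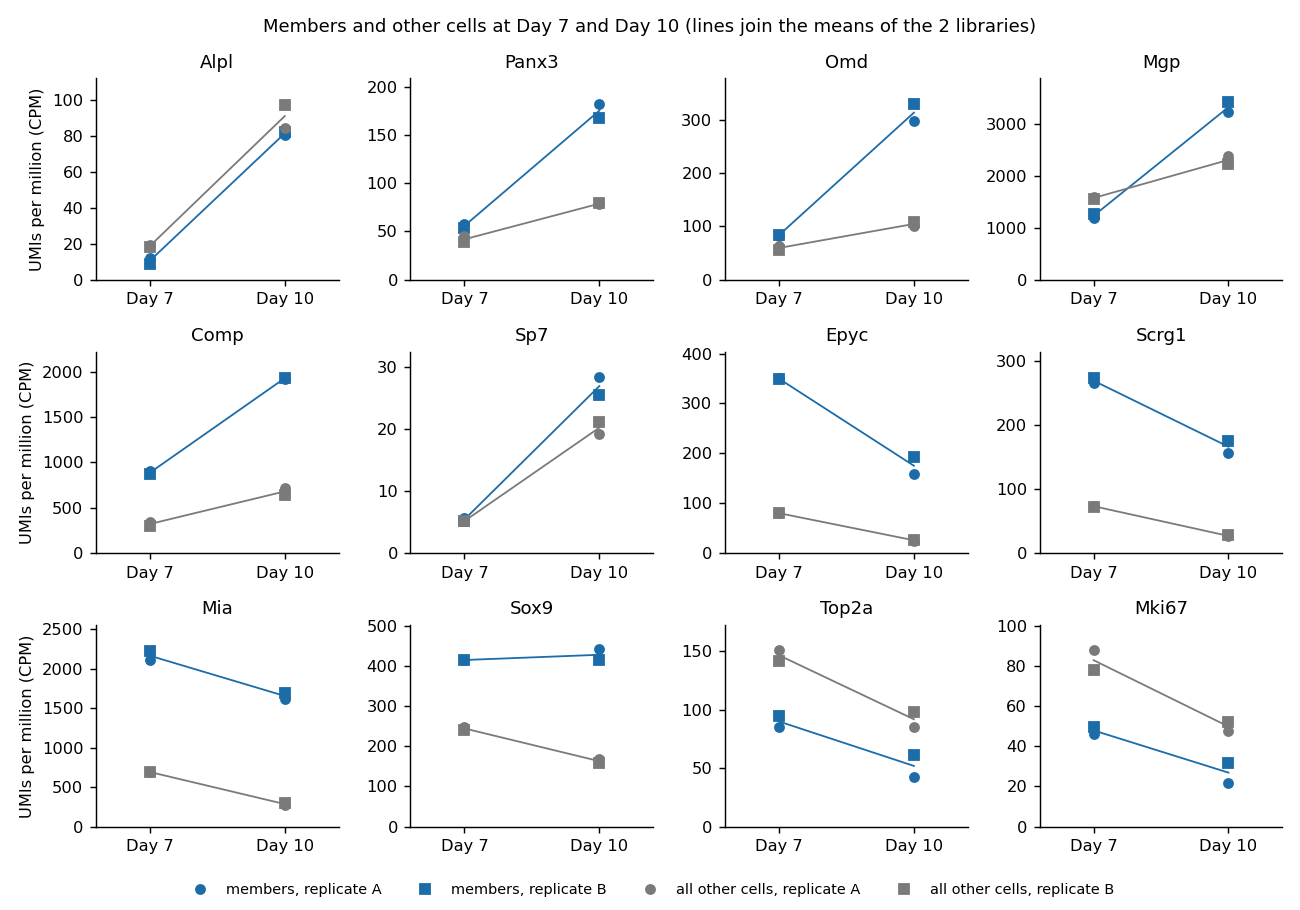
CPM (y axes) at Day 7 and Day 10 (x axes) of 12 genes in the cells that meet the rule (blue, members) and in all other cells (grey) for replicate A (circles) and B (squares), with lines through the mean of the 2 libraries. Alpl, Panx3, Omd, Mgp, Comp and Sp7 climb in both classes, Epyc, Scrg1, Mia, Top2a and Mki67 drop in both, and Sox9 stays near 415 CPM in members and stands at 168 and 158 CPM in the other cells at Day 10.

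The last comparison asked whether the change from Day 7 to Day 10 in these cells differed from that in the other cells of the same cultures, as an interaction with the library as a block (edgeR, as above). Of 17374 genes tested, 1535 (8.84%) shifted upward in the non-hypertrophic chondrocytes relative to the other cells and 2491 (14.3%) downward, with 266 (1.53%) and 84 (0.483%) at least 2-fold. Under scaling by library totals the median of all genes moved from -0.02 to 0.10 on the log2 scale and 69.6% of calls were upward in place of 38.1%, and within 20000 to 40000 UMIs 57.0% were. Without Day 7 replicate B 903 genes shifted upward.

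Genes of the cartilage lists shifted upward relative to the other cells, and so did genes of some other lists. All 7 fibril collagens shifted upward, with a median of 0.65, as did 11 of 12 small secreted proteins, 6 of 10 genes of the aggrecan group and 8 of 11 leucine-rich genes (1 downward). The perichondrium and fibrous list had 9 of 16 upward and 1 downward, with a median of 0.22, and the dissociation-response list 6 of 12 upward and none downward, with a median of 0.26. The hypertrophy and mineral list had 4 of 14 upward and 2 downward, with a median of 0.02. In the other cells Col2a1 went from 6157 and 5579.8 CPM to 4349 and 4079.5 CPM (difference 0.65, SE 0.045, edgeR adjusted p = 7.29e-07). Ucma went from 22.4 and 26.2 to 11.6 and 11.4 CPM in the other cells (difference 1.20, SE 0.074, edgeR adjusted p = 2.76e-07), and Sox9 from 248 and 242 to 168 and 158 CPM (difference 0.52, SE 0.041, edgeR adjusted p = 2.20e-06). Igf2 went from 1692 and 1675 to 869 and 852 CPM there (difference 0.93, SE 0.04, edgeR adjusted p = 2.61e-08). Cell cycle genes shifted downward in 20 of 22, with a median of -0.61, although for Top2a the difference of -0.24 did not pass (edgeR adjusted p = 0.0885). The other cells are a mix whose make-up differs between the days. Those below 0.25% of Matn1 plus Snorc, for instance, had 2985 and 2368 CPM of Col2a1 at Day 7 and 1234 and 1087 CPM at Day 10, so a change within the other cells and a change in which cells they are cannot be told apart.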

How the data were processed

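Distal forelimb cells of wild-type mouse embryos (E11.5) were cultured for 2, 7 or 10 days, with replicates A and B of each, and sequenced with the 10x 3′ kit. The authors deposited UMI counts per gene and barcode, made from the reads with Cell Ranger 6.1.2 (STAR, GRCm38) and not normalized. Their files hold 32286 features, and their own filtering in Seurat 4.1.0 was not applied here except as an alternative.

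Counts were summed per library and class of cells, since cells are not replicates, and the matrices were read with Python 3.11.15. Members were chosen by the rule in the text, and no doublet caller was run. The members, the 30 gene lists (438 genes) and the tests were chosen with earlier results of these data known. A difference within Day 10 is a fold in both libraries (at least 2, with 10 CPM in the higher group) and carries no test. Days were compared with edgeR 4.0.16 (TMM, quasi-likelihood, Benjamini-Hochberg over all genes) in R 4.3.3, on 2 cultures per day. The p-values rest on a spread between cultures that was drawn largely from other genes. Each standard error (SE) was computed back from the test, as the size of the log2 change over the square root of its F statistic. Tested on simulated data with 100 genes changed 2-fold and 100 changed 4-fold in each comparison, edgeR recovered 100% of them. Of the unchanged genes it called 10 of 13860 between days and 6 of 16772 in the interaction. The simulation gave all genes the same spread, drew the classes of a library independently and changed only genes above 10 CPM. Real genes differ in spread, so it cannot give the rate of false calls in the real data. Whether real changes of these sizes are recovered as fully was not tested.

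Genes were named when on a list, among the 10 largest changes each way against the other cells or between days, or the 5 largest against the Ihh or Col10a1 chondrocytes, at 50 CPM or more, or used by the rule. Mitochondrial, ribosomal, Xist and Y-linked genes were left out of the leading genes, and 1 leading gene is not reported here. Tnnt3, 6330403K07Rik and Lockd fell outside this rule and were named after their values were seen. Alternatives were other Matn1 plus Snorc limits, thinning to 3000 UMIs, the study's cell filter, other scaling and count filters and DESeq2 1.42.0. Further ones were a replicate block between days, the interaction without its library block and leaving out each library. When the rule was applied to thinned cells, the Col10a1 limit was under 3 UMIs in place of under 20. Intervals are exact binomial (95%). Promoters came from RefSeq (GRCm38.p6).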

Additional observations from a re-analysis of the deposited data

Results flagged for a closer look

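For 14 of 19 genes that led the change of the non-hypertrophic chondrocytes from Day 7 to Day 10, that change differed from the change in the other cells of the same cultures (edgeR interaction, adjusted over 17374 genes). Over all genes tested, 8.84% shifted upward and 14.3% downward. The leading genes were picked by their change in the same sums that the interaction uses, so their number is a description. The values are log2 differences, positive where the non-hypertrophic chondrocytes moved upward relative to the other cells.

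Among the genes that rose, the rise was larger in the non-hypertrophic chondrocytes for Ccdc80 (1.07), Omd (0.98), Mgp (0.77), Panx3 (0.62), Alpl (0.56) and Cdsn (0.35). Ibsp rose less in them than in the other cells (-1.79), where it went from 3.69 and 6.07 CPM to 546 and 804 CPM, and this difference did not pass without Day 7 replicate A (-0.94, edgeR adjusted p = 0.128) or with DESeq2 (-1.76, adjusted p = 0.112).

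Among the genes that fell, the fall was smaller in the non-hypertrophic chondrocytes for Lars2 (1.03), Hist1h1e (0.78) and Gm42418 (0.72). It was larger for Gstp1 (-0.53), Hist1h2ap (-0.34), Gm10076 (-0.23) and Gm10260 (-0.20), 4 genes whose Day 10 replicates A and B stood far apart in both classes of cells and whose counts can be split with near copies. Within 20000 to 40000 UMIs, a range added after the data were seen, the difference did not pass for Lars2, Hist1h2ap, Gm10076 and Gm10260. It also did not pass for Hist1h2ap without Day 10 replicate A (0.12) or Day 7 replicate B (-0.26), or for Gm10076 without Day 10 replicate B (-0.21). With library totals in place of TMM it did not pass for Hist1h2ap (edgeR adjusted p = 0.178) and Gm10260 (edgeR adjusted p = 0.0930), and for Hist1h2ap it did not pass with DESeq2 (adjusted p = 0.784) or the study's cell filter (edgeR adjusted p = 0.0556) either. Without the library block it did not pass for Ibsp (-1.73), Hist1h2ap (-0.36), Gm10260 (-0.20), Gm10076 (-0.21) and Gstp1 (-0.54), although these differences kept about their size.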

How the results depend on the processing

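The share of Day 10 cells that met the rule depended on its limits. It was 10.6% and 10.8% (replicates A and B) at a Matn1 plus Snorc limit of 0.2% and 5.77% and 6.47% at 0.5%. After thinning to 3000 UMIs, with Col10a1 then held under 3 UMIs, it was 13.6% and 14.4%. Under the study's cell filter it was 8.08% and 7.44%. With 1 CPM in place of 10 CPM, 544 genes were higher and 1564 lower than in the other cells, and 95 and 105 against the Ihh or Col10a1 chondrocytes. The 21 genes higher than in those chondrocytes became 32 at the 0.5% limit, 33 under the study's filter, 4 within 20000 to 40000 UMIs (a range chosen after seeing the data) and 46 to 47 in a single library. Between the days, DESeq2 called 1257 higher and 1290 lower, library totals 1476 lower, and leaving out 1 library gave 1403 to 1938 higher and 1442 to 2034 lower, fewest without Day 7 replicate A. The interaction gave 1015 upward and 766 downward calls within the depth range, 2465 and 1075 with library totals, 853 and 1354 with DESeq2, and 903 to 1299 and 1744 to 2222 with 1 library left out. Without the library block 1589 were downward. Between days, adding a replicate block gave 2391 higher and 2489 lower. The labels do not say whether the replicate letters pair the samples. The deviations of replicate A at Day 7 and Day 10 had a correlation of 0.005 across 14256 genes. That shows no shared shift but cannot settle the pairing. Reversals were seen in the interaction for Lars2 (-0.0737) and Hist1h2ap (0.0422) within the depth range, and for Hist1h2ap when 1 library was left out (-0.45 to 0.12). The cause of these shifts was not tested. Of the named genes past 2-fold within Day 10, the folds of 71 against the other cells and 13 against the Ihh or Col10a1 chondrocytes were recomputed, and none reversed. They moved by more than the spread between replicates for 59 and 8 of these within 20000 to 40000 UMIs, 52 and 10 after thinning and 44 and 5 with TMM.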
